A study of Mus musculus with 6 samples.

Results

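The interferon-inducible GTPases described here are 10 mouse genes of 2 families, the guanylate-binding proteins (GBP; Gbp3, Gbp4, Gbp5, Gbp6, Gbp7 and Gbp9) and the immunity-related GTPases (IRG; Iigp1, Igtp, Ifi47 and Tgtp2). They were taken by gene symbol from an expression table of 13363 genes, and all 10 were listed. The table holds FPKM (fragments scaled to transcript length in kilobases and to a depth of 1000000 mapped fragments) from RNA sequencing of the gastrocnemius muscle of 3 male Balb/c mice bearing C26 tumors and 3 nontumor-bearing control mice. The C26 line comes from a colon carcinoma of the mouse, and its cells were inoculated under the skin of mice of the same strain, bought at 6 weeks of age and kept for 1 week before, which then lost weight and muscle. The mice of both groups carried no engineered allele that the sources name, and the model is 1 tumor line in 1 strain and sex. Whole muscle was sequenced, so fewer cells of a type and less RNA per cell cannot be told apart.

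GBP and IRG proteins are GTPases of cell-autonomous immunity. Interferon gamma binds its receptor, the kinases JAK1 and JAK2 relay the signal, and factors that include IRF1 switch on their genes. GBP proteins are large, dynamin-like GTPases that coat bacteria and the vacuoles of intracellular parasites. IRG effectors such as Iigp1 and Tgtp2 load onto parasite vacuoles and break them open, whereas regulators such as Igtp and Irgm1 sit on the cell's own membranes and keep the effectors inactive there. Interferon induces these genes in many cell types, muscle fibers and vessel cells among them.

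The GBP members form 2 clusters in GRCm38. Gbp5 (chr3:142496934-142522344), Gbp7 (chr3:142530336-142550151) and Gbp3 (chr3:142560016-142573213) lie side by side on chromosome 3. Gbp9 (chr5:105076464-105110357), Gbp4 (chr5:105115767-105139586) and Gbp6 (chr5:105270702-105295871) lie on chromosome 5. Of the IRG members, Tgtp2 (chr11:49057196-49064212), Ifi47 (chr11:49076587-49096987) and Igtp (chr11:58199556-58207592) are on chromosome 11, and Iigp1 lies on another chromosome.

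Promoter windows from RefSeq on GRCm38.p6, from 250 bases before to 50 after a start, were used for 6 members. These have 7 windows, since Gbp3 has a second one. They were searched on both strands for TTCNNNGAA, the gamma-activated site (GAS) of genes that respond to interferon gamma, and for GAAANNGAAA, the interferon-stimulated response element (ISRE) bound by IRF factors. GAS letters were found in 4 of the 6 members and ISRE letters in 5, against 8.3% and 3.44% of 32851 promoter windows. Members are counted by gene, with a match in any window, and the background by window. Both were present in 4 of the 6, against 0.454% of all windows. Igtp and Tgtp2 carried GAS and ISRE in the same order with 2 bases between them, a spacing noticed in these sequences. It was found in 5 of all windows, those of Igtp, Tgtp2, Tgtp1, Irgm2 and Gm12185, which are all IRG genes. The 5 stretches with matches are shown because these are the letters that members of both families share. Each runs 5′ to 3′ along the gene with the matches in capitals. In Gbp3 the capitals are 2 ISRE matches that overlap, and in Gbp5 and Gbp7 they are 2 GAS and 1 ISRE. The ISRE of these 3 genes are read on the opposite strand.
Tgtp2 (chr11:49064258-49064308, minus strand): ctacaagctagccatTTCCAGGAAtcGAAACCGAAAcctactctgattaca
Igtp (chr11:58199496-58199546, plus strand): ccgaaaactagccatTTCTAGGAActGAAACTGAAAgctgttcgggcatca
Gbp7 (chr3:142530215-142530307, plus strand): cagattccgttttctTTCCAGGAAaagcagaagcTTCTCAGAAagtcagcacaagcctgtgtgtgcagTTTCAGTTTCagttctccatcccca
Gbp3 (chr3:142559984-142560029, plus strand): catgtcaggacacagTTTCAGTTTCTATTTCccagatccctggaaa
Gbp5 (chr3:142496684-142496905, plus strand): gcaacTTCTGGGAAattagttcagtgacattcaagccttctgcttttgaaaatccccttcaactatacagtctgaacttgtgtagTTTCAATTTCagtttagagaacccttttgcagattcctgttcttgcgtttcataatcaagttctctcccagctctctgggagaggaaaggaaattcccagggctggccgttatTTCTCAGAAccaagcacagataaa
In the window of Ifi47 and in the second window of Gbp3 (chr3:142560106-142560405) neither motif was found. A match is a description of letters and shows no binding.

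All 11 markers of fast muscle fibers were listed, and their summed FPKM was 79860 to 123000 in C26 and 176300 to 192000 in control muscles. Control replicate 3 stood apart in leukocyte markers. The summed FPKM of 7 pan-leukocyte genes was 794.3 there, 17.18 and 7.89 in the other controls and 3.91 to 8.82 in C26 muscles. Control replicate 1 stood apart in the GTPases themselves, so results are also given without either muscle.

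All 10 members fell in C26 muscles (limma, Benjamini-Hochberg adjusted p under 0.05 over all genes), each by more than 4-fold, and 0 rose. Among all 13363 genes 14.5% fell and 19.4% rose by the same test, and 1.73% fell by more than 4-fold. For all 10, every C26 value lay below every control value, as it did for 26.5% of all genes. The median log2 fold change was -2.45 for the 6 GBP and -2.44 for the 4 IRG members, against -0.05 for all genes. These fold changes are on the scale of log2(TPM + 1), which understates the change of genes near 0. On plain FPKM, control means were 7.6 to 54.0 times the C26 means, and 4.27 to 16.8 times without control replicate 1.

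**Figure D1:**
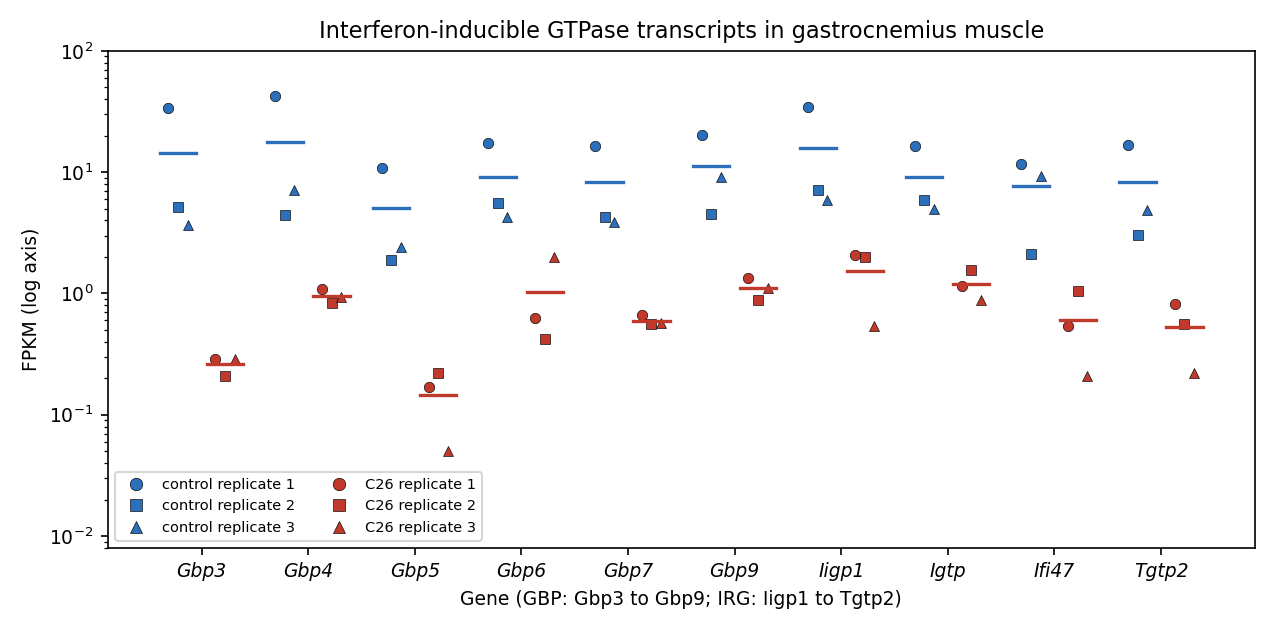
FPKM of each member (log axis) in the 3 control (blue) and 3 C26 (red) muscles, with a marker shape for each replicate and a bar at the group mean. C26 muscles lie between 0.05 and 2.06 FPKM and control muscles between 1.9 and 42.0, with control replicate 1 highest for all 10 genes.

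Gbp5, a GBP linked to assembly of the NLRP3 inflammasome, had 0.17, 0.22 and 0.05 FPKM in C26 replicates 1, 2 and 3, and controls 1, 2 and 3 had 10.82, 1.9 and 2.43 FPKM. The groups were far apart, with the lowest control 8.64 times the highest C26 value. Its log2 fold change was -2.46 (SE 0.54, adjusted p = 0.0167 by limma). Gbp5 had the lowest mean of the members in either group, 0.147 ± 0.0874 in C26 and 5.05 ± 5.0 in control muscles (SD, n = 3).

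Its neighbor Gbp7, linked to oxidant production at pathogen vacuoles, had 0.66, 0.56 and 0.57 FPKM in C26 and 16.52, 4.3 and 3.86 in control muscles. The C26 muscles were nearly alike, whereas control replicate 1 was well above the other controls. The fall was -2.44 on the log2 scale (SE 0.49, adjusted p = 0.0136 by limma). Gbp3, the last gene of the cluster, had 0.29, 0.21 and 0.29 FPKM in C26 and 33.82, 5.18 and 3.69 in control muscles. It had the largest change of the 10, at -3.32 (SE 0.73, adjusted p = 0.0174 by limma). Its mean FPKM was among the highest of the members in control muscles (14.2 ± 17.0, SD, n = 3) and the lowest but for Gbp5 in C26 muscles (0.263 ± 0.0462). Gbp3 made up 15.4%, 11.8% and 6.64% of the members' summed FPKM in the controls and 3.32%, 2.54% and 4.26% in C26 muscles. It was singled out here after its values were seen.

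On chromosome 5, Gbp4 had 1.08, 0.83 and 0.93 FPKM in C26 and 42.03, 4.42 and 7.07 in control muscles. It had the highest control mean of the members, 17.8 ± 21 FPKM (SD, n = 3), and that mean rested on replicate 1. The fall measured -2.76 on the log2 scale (SE 0.73, adjusted p = 0.0296 by limma). Gbp9 had 1.33, 0.88 and 1.1 FPKM in C26 and 20.18, 4.49 and 9.17 in control muscles. Its change of -2.40 (SE 0.45, adjusted p = 0.0112 by limma) had the lowest adjusted p of the members. Gbp6 had 0.63, 0.42 and 2.01 FPKM in C26 and 17.36, 5.53 and 4.26 in control muscles. It was the only member with its sole highest C26 value in replicate 3, and its lowest control was 2.12 times that value. The log2 fold change of Gbp6 was -2.28 (SE 0.58, adjusted p = 0.0271 by limma).

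Among the IRG effectors, Iigp1 (Irga6), which loads onto parasite vacuoles, had 2.06, 1.98 and 0.54 FPKM in C26 and 34.08, 7.15 and 5.9 in control muscles. C26 replicate 3 was below the other C26 muscles, and all lay below the controls. Its change was -2.43 (SE 0.67), and its adjusted p of 0.0343 by limma was the highest of the 10. Tgtp2 (Irgb6), another effector, had 0.82, 0.56 and 0.22 FPKM in C26 and 16.79, 3.04 and 4.87 in control muscles. Here too C26 replicate 3 was lowest. The change was -2.52 (SE 0.55, adjusted p = 0.0164 by limma).

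Igtp (Irgm3), a regulator on the cell's own membranes, had 1.15, 1.56 and 0.89 FPKM in C26 and 16.43, 5.94 and 4.98 in control muscles. Its change was the smallest of the members, at -2.09 (SE 0.42, adjusted p = 0.013 by limma). Ifi47 (Irgd) had 0.54, 1.05 and 0.21 FPKM in C26 and 11.73, 2.12 and 9.36 in control muscles. It was the only member whose control replicate 3 was close to control replicate 1, and its lowest control was 2.02 times its highest C26 value. The change was -2.45 (SE 0.55, adjusted p = 0.0183 by limma).

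By mean FPKM, which is per length, the order in control muscles ran from Gbp4 through Iigp1, Gbp3, Gbp9, Igtp, Gbp6, Tgtp2, Gbp7 and Ifi47 to Gbp5. No neighbors in that order differed by more than their SD. In C26 muscles the order was Iigp1, Igtp, Gbp9, Gbp6, Gbp4, Ifi47, Gbp7, Tgtp2, Gbp3 and Gbp5, and only the last pair differed by more than the SD of both. Among all genes of a sample, the members' median percentile by level was 56.2 in control and 23.0 in C26 muscles.

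The controls differed among themselves by severalfold. Control replicate 1 was highest for 10 of 10 members, and for 33.9% of all genes. It exceeded control replicate 2 by 2.77 to 9.51 times and control replicate 3 by 1.25 to 9.17 times. The members' summed FPKM was 219.8, 44.07 and 55.59 in the controls and 8.73, 8.27 and 6.81 in C26 muscles. Adipocyte markers were also highest in control replicate 1. Of the 9, 7 were lower in every C26 muscle than in every control, as the members were, and 6 fell by limma (Adipoq, Retn, Plin1, Cfd, Cidec and Lep). These 6 summed to 1173.0, 465.1 and 95.0 FPKM in controls 1 to 3, and their C26 sums were 36.1, 23.9 and 3.0. The sum over all 9 was 4494, 2361 and 668.5 in the controls against 832 to 1093 in C26 muscles. It also holds Pnpla2, which rose (2.40), Lpl and Fabp4, which had 2957.41, 1590.11 and 443.04 FPKM in controls 1 to 3. Fabp4 was lower in every C26 muscle than in every control but did not pass (-1.96, adjusted p = 0.0641 by limma). Endothelial markers summed to 156.4, 99.9 and 113.2 in the controls and 77.43 to 82.6 in C26 muscles, and 3 of 10 fell. Fibroblast markers summed to 550.2, 431.9 and 409.6 in the controls and 169.6 to 233.8 in C26 muscles, and 5 of 9 fell. Of these 9, 8 were lower in every C26 muscle than in every control, as were 4 of the 10 endothelial markers. The same held for 26.5% of all genes. By limma 14.5% of all genes fell and 19.4% rose, and shares at an unadjusted p were not counted. The part of adipocytes, endothelial cells and fibroblasts in the GTPase result was not tested. All 7 pan-leukocyte markers had negative log2 fold changes (median -2.12), and 0 passed the test by limma, also at an unadjusted p under 0.05. Their sum was highest in control replicate 3, and apart from that muscle it was highest in control replicate 1. The part of leukocytes in the GTPase result was not tested. Macrophage markers ranged from 67.13 to 259.6 in control and from 61.27 to 325.7 in C26 muscles, and 0 of 10 passed the test by limma, with 1 lower and 2 higher at an unadjusted p under 0.05. One gene, Cd68, carried the highest C26 sum, and without it the C26 sums were 96.5, 79.1 and 54.8. In control replicate 3 the sum rested mostly on Lyz2. Of 4 listed neutrophil markers 2 rose, S100a8 (1.92, adjusted p = 0.00858 by limma) and S100a9 (1.86, 0.00691), and the list's summed FPKM lay between 6.68 and 7.25 with tumors and between 0.85 and 2.89 without. Of 4 listed dendritic cell markers 0 passed by limma, with 1 lower at an unadjusted p under 0.05, and their summed FPKM lay between 1.13 and 1.53 with tumors and between 2.16 and 7.52 without. The 2 listed T cell markers summed to 0.03 to 0.12 FPKM in C26 muscles, 0.14 and 0.13 in control replicates 1 and 2 and 12.58 in control replicate 3, and the listed B cell marker had 134.4 FPKM in control replicate 3 and at most 0.82 elsewhere.

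**Figure D2:**
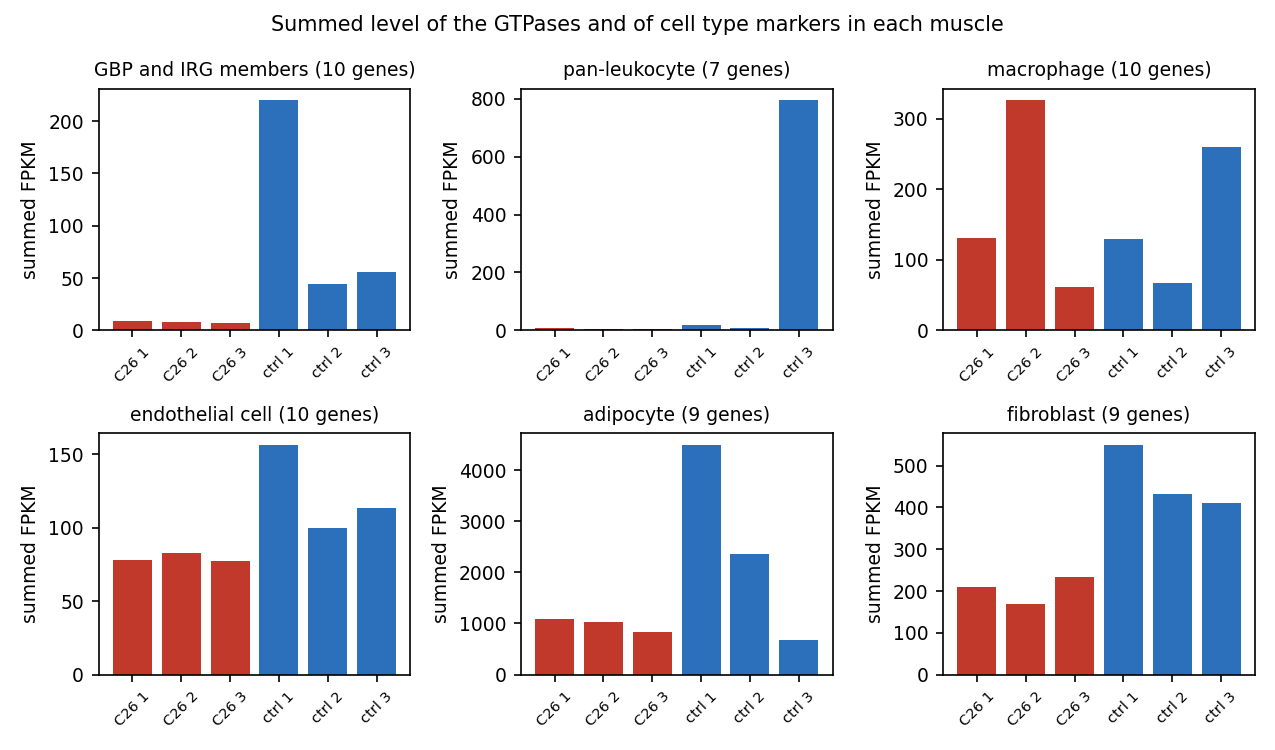
Summed FPKM of the 10 GTPases and of 5 cell type marker lists in each muscle (red C26, blue control, each panel on its own linear axis from 0). The GTPases peak in control replicate 1 (219.8), as adipocyte, endothelial and fibroblast markers do, while pan-leukocyte markers peak in control replicate 3 (794.3).

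Without control replicate 3, all 10 members still passed the test, and 14.7% of all genes fell. Without control replicate 1, log2 fold changes were smaller, from -1.61 (Igtp) to -2.41 (Gbp3), and 7 members passed. Gbp6, Iigp1 and Ifi47 did not, and Gbp3 alone both passed and exceeded 4-fold. Fewer genes of the whole table fell in that fit, 5.42%. The number of passing members also depended on the C26 muscles. Without C26 replicate 1, Gbp9 alone passed, with log2 fold changes of the 10 still from -2.07 to -3.33 and adjusted p of 0.0437 to 0.0949 by limma, and 5.01% of all genes fell. Without C26 replicate 2, 4 members passed (Gbp7, Gbp9, Igtp and Ifi47), and 7.08% of all genes fell. Gbp4 and Iigp1 did not pass without C26 replicate 3, where 16.2% of all genes fell, nor did Gbp6 and Iigp1 without control replicate 2, where 10.5% fell.

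**Figure D3:**
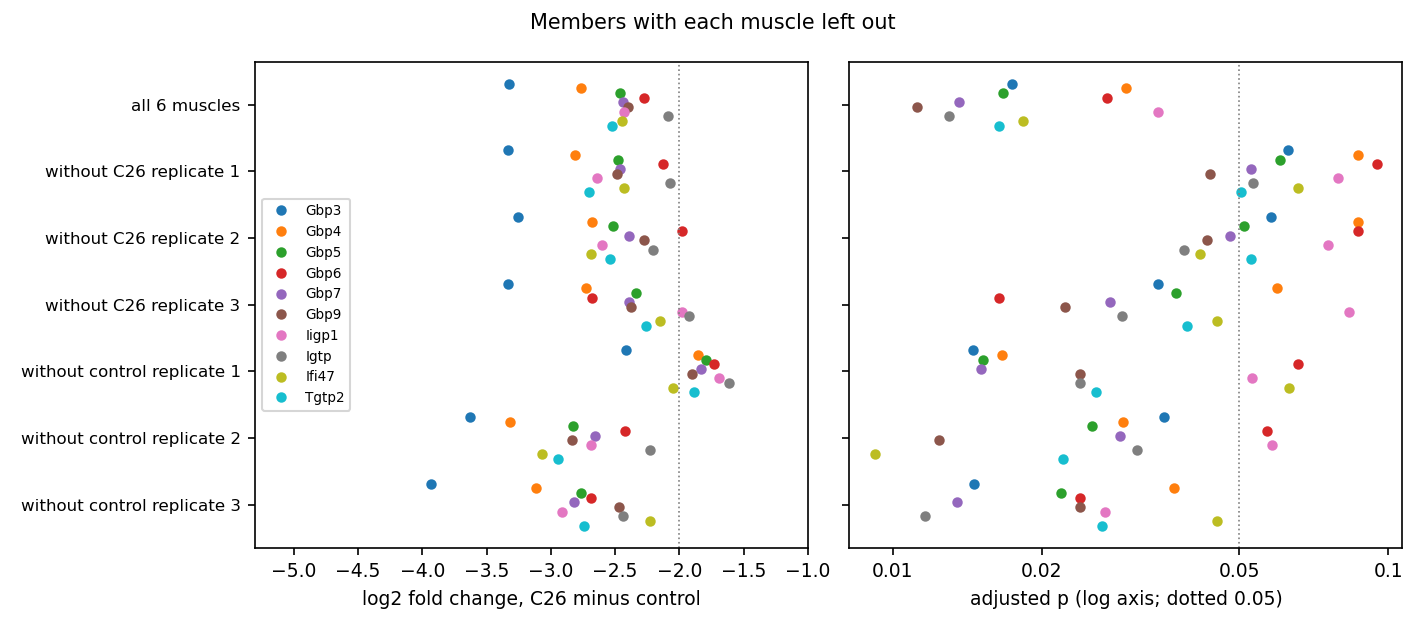
Log2 fold change (left) and Benjamini-Hochberg adjusted p by limma (right, log axis) of each member with all 6 muscles and with each muscle left out; dotted lines mark 4-fold and 0.05. All log2 fold changes stay below -1.6, while the adjusted p lies above 0.05 for 9 members without C26 replicate 1.

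Several members share sequence with a close relative, and RSEM splits reads that fit several genes. Of the 50-base windows of the longest coding transcript, the length of a read, 90.6% in Tgtp2 and 90.2% in Gbp6 also occurred in another gene. For Tgtp2 the relative was mainly Tgtp1 (89.8%), and for Gbp6 it was Gm43302 (90.2%) and Gbp10 (62.3%). Gm43302 is not part of the sums below. The share was 12.8% in Gbp4 and Gbp7, 12.3% in Igtp and at most 9.6% in the others. Values of Tgtp2 and Gbp6 are therefore uncertain singly. Tgtp2 summed with Tgtp1 gave 1.61, 1.59 and 0.3 FPKM in C26 and 31.32, 5.03 and 8.05 in control muscles. That sum still fell (log2 fold change -2.67, SE 0.66, adjusted p = 0.0249 by limma). Gbp6 summed with Gbp10 gave 1.9, 1.43 and 13.06 FPKM in C26 and 32.17, 19.54 and 12.33 in control muscles, so the groups overlapped. Its change of -2.12 (SE 0.79) did not pass the test (adjusted p = 0.0804 by limma). Gbp10 had 11.05 FPKM in C26 replicate 3 and 1.27 and 1.01 in the other C26 muscles.

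**Figure D4:**
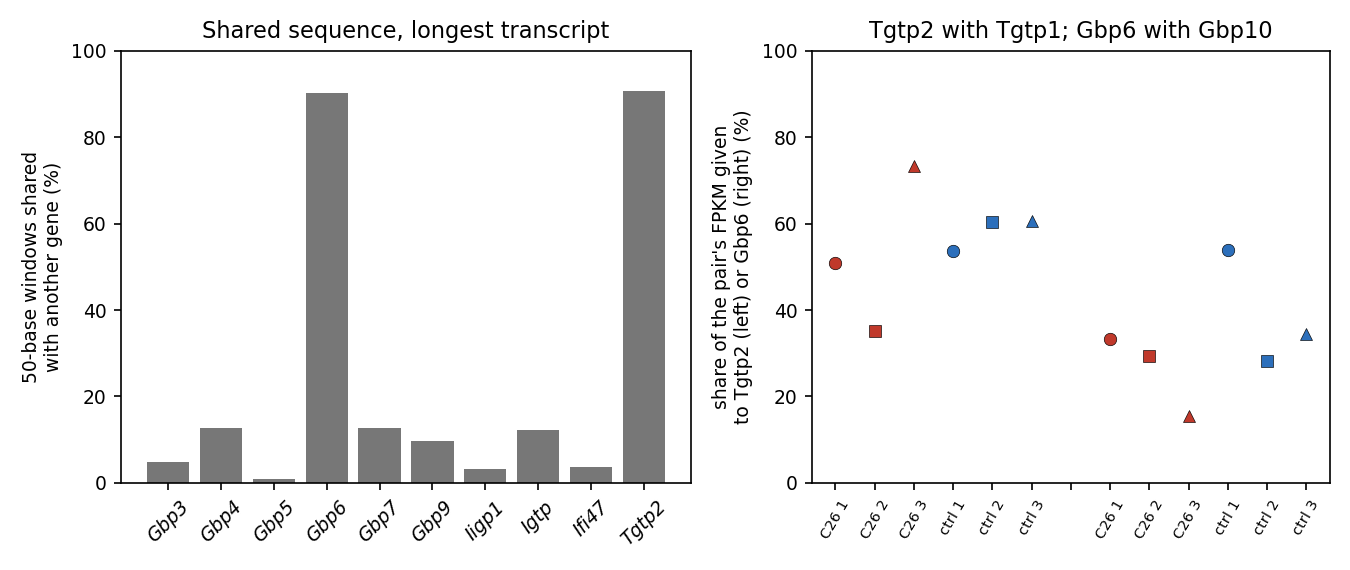
Left, share of 50-base windows of each member's longest transcript that occur in another gene; right, share of the pair's FPKM given to Tgtp2 (with Tgtp1) or Gbp6 (with Gbp10) in each C26 (red) and control (blue) muscle. Tgtp2 and Gbp6 share 90.6% and 90.2% of windows with any other gene, and Gbp6 shares 62.3% with Gbp10. The share of FPKM given to Gbp6 is 15.4% in C26 replicate 3 and 54.0% in control replicate 1.

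Depth was estimated roughly, from the spacing of low FPKM, at 13500000 to 19800000 reads per muscle. At that depth, the values of Gbp5 correspond to 10.1, 10.5 and 2.1 reads in C26 replicates 1 to 3 and to 544.2, 95.4 and 98.7 reads in the controls. Other members rested on as few. Gbp3 in C26 muscles corresponds to 1.4 to 2.5 reads if its shortest coding transcript is taken and 8.8 to 15.2 if its longest is. Ifi47 in C26 replicate 3 corresponds to 1.9 to 5.0 reads. Differences among C26 muscles of genes this low rest on few reads.

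Of 23 other GTPases of these and related families, 14 were listed, and 6 fell and 0 rose by limma (median log2 fold change -1.32). At an unadjusted p under 0.05, 10 were lower and 0 higher. Among all genes 14.5% fell and 19.4% rose at an adjusted p under 0.05, and the share at an unadjusted p was not counted. Gm4841, an IRG gene related to Iigp1, fell the most, from 8.85, 8.03 and 7.28 FPKM in the controls to 0.27, 0.11 and 0.05 in C26 muscles (-3.43, SE 0.18, adjusted p = 0.000822 by limma). F830016B08Rik, of the same group, had 6.55, 3.43 and 4.67 FPKM in the controls and 0.25, 0.33 and 0.43 in C26 muscles (-2.37, SE 0.21, adjusted p = 0.00194 by limma). The controls of these genes differed by 1.22 and 1.91 times, less than those of any member. Gbp2b (-1.98), 9930111J21Rik1 (-1.1), 9930111J21Rik2 (-1.45) and the very large GTPase Gvin1 (-1.18) also fell. Gbp2 (-1.76, adjusted p = 0.0625 by limma), Tgtp1 (-2.06, 0.0542) and the regulator Irgm1 (-0.79, 0.0892) did not pass. The log2 fold changes of Gbp10 (-1.74), Gbp8 (-0.56), Gm12185 (-0.44) and Gm5431 (-0.28) did not pass either. Irgq, a relative not induced by interferon, ranged from 2.96 to 5.48 FPKM with tumors and from 3.02 to 3.67 without (log2 fold change 0.46, adjusted p = 0.163 by limma).

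**Figure D5:**
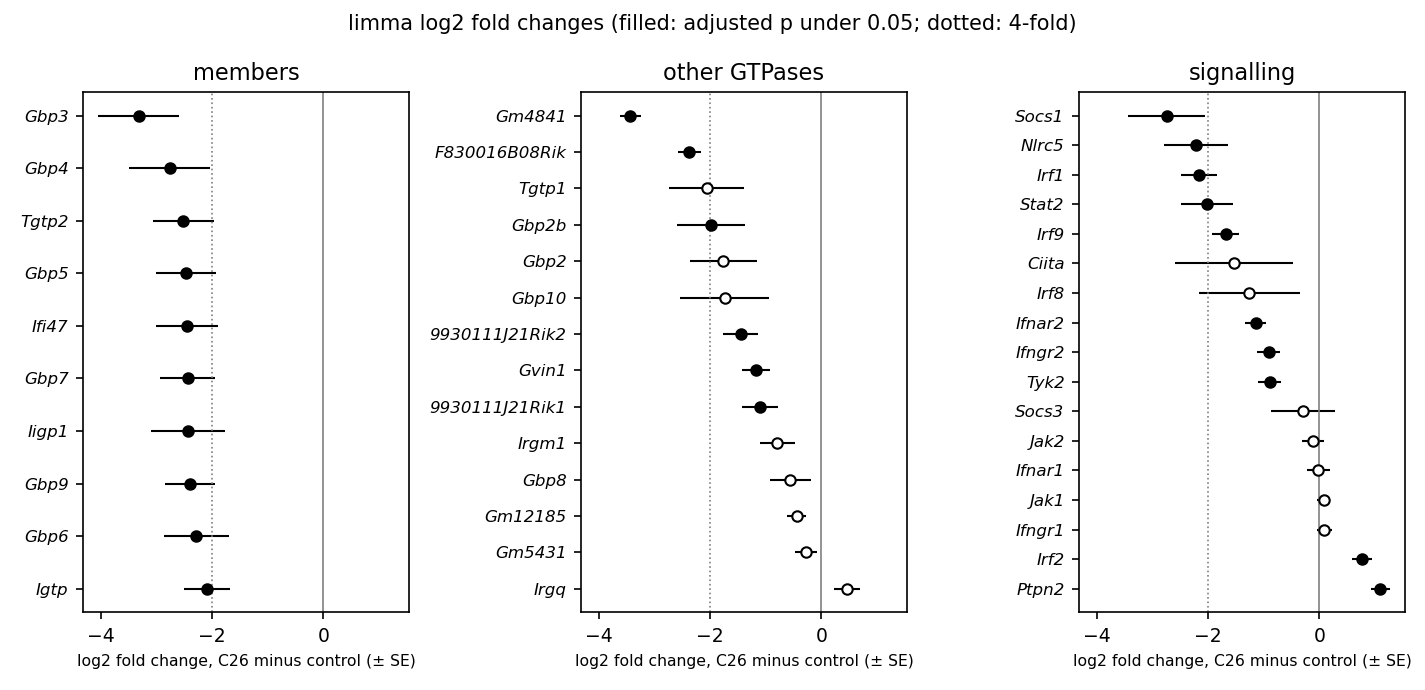
Log2 fold change (C26 minus control, ± SE) of the members, the other listed GTPases and the reported genes of interferon signalling, with filled points at an adjusted p under 0.05 by limma. The 10 members lie between -2.09 and -3.32, and the other GTPases between -3.43 (Gm4841) and 0.46 (Irgq).

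Of the interferon signalling genes, 18 of 19 were listed, and 9 fell and 2 rose (median -1.03). For this list and those below, the shares of all genes that fell and rose were 14.5% and 19.4%. Their shares at an unadjusted p were not counted. The receptor chain gene Ifngr2 fell (-0.91, SE 0.21, adjusted p = 0.0194 by limma). Its FPKM ranged from 18.67 to 28.44 in C26 and from 51.42 to 51.76 in control muscles. Ifngr1 (0.09), Jak1 (0.08) and Jak2 (-0.11) did not pass. The factor Irf1 fell (-2.16, SE 0.32, adjusted p = 0.00632 by limma), as did the feedback inhibitor Socs1 (-2.74, SE 0.69, adjusted p = 0.0259). In controls 1, 2 and 3, Irf1 had 20.03, 7.89 and 20.34 FPKM and Socs1 had 8.9, 0.96 and 11.36. In C26 muscles they had at most 2.95 and 0.21 FPKM. Both were highest in control replicate 3, and fits without that muscle are given for the members only. Nlrc5, an activator of MHC class I genes, fell by 2.22 on the log2 scale. The 2 genes that rose, named after their values were seen, were the phosphatase Ptpn2 (1.1) and the repressor Irf2 (0.76). Of other interferon gamma targets, 14 of 20 were listed, and 8 fell and 0 rose by limma (median -1.77; at an unadjusted p under 0.05, 10 were lower and 0 higher), led by Psmb8 (-2.80), B2m (-2.08) and Tap2 (-2.05), which act in antigen presentation. Of the genes that load GTPases onto vacuoles, 9 of 10 were listed, and 0 fell and 4 rose by limma (median 0.39; at an unadjusted p under 0.05, 0 were lower and 5 higher). Gabarapl1 (4.25), Map1lc3b (2.04) and Map1lc3a (0.72), ubiquitin-like proteins of autophagy, rose most. Of inflammasome genes linked to GBPs, 8 of 10 were listed, and 1 fell and 0 rose by limma (median -0.89; at an unadjusted p under 0.05, 2 were lower and 0 higher). All 8 had negative log2 fold changes. The gene that fell was Irf1, also counted among the signalling genes, and Irgm1 is also among the other GTPases.

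The members' profiles over the 6 muscles were compared with all other genes by the root mean square difference of centred log2 values. The nearest were H2-T24 (0.15), Usp18 (0.21), Stat2 (0.27), Lgals3bp (0.31), Lgals9 (0.32), Gbp2b (0.33), Ly6e (0.33) and Parp14 (0.36), on the log2 scale. Within the members, Gbp5 (0.08) and Gbp7 (0.14) lay nearest to the mean profile, and Gbp6 (0.55) and Ifi47 (0.58) farthest. H2-T24 had 0.94, 0.79 and 0.73 FPKM in C26 and 18.08, 5.35 and 6.17 in control muscles, and the interferon-induced protease gene Usp18 had 0.41, 0.64 and 0.28 and 13.16, 3.48 and 2.89. These genes were picked for this likeness, so their shared order of muscles is a description.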

How the data were processed

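Total RNA of gastrocnemius muscle was sequenced from 3 C26 and 3 control mice, grouped by the sample labels. The deposited values are FPKM, made by the authors from single-end reads of 50 bases after rRNA removal, by alignment with bowtie2 and estimation by RSEM. The submitters' notes name HISAT2 2.0.4, Bowtie2 2.2.5 and RSEM 1.2.12. They list mm9 where the methods name GRCm38.p5, so no coordinate was taken from the expression values. The file lists 13363 genes with at least 0.01 FPKM in every sample; unlisted genes were not analysed here, and 13327 had a symbol.

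FPKM were rescaled to TPM summing to 1e+06, divided by unweighted TMM factors (30% of log ratios and 5% of levels trimmed) and log2-transformed after adding 1. Groups were compared with limma 3.58.1 in R 4.3.3, with empirical Bayes moderation and Benjamini-Hochberg adjustment over all genes, as tested on simulated data. Python 3.11.15, pandas 2.3.3, numpy 2.4.6 and matplotlib 3.10.9 were used for the rest. The mice are taken as separate replicates; the p-values measure only the spread between these samples. Alternatives were a smaller pseudocount (0.1), a filter on mean TPM (1 or more), no TMM, unscaled FPKM, quantile normalization, a block on replicate number, a trended prior variance and the omission of each muscle. Summing paralogs was chosen after seeing the data. Muscles of a group had equal FPKM for at most 1.52% of genes, so none was counted as a repeat.

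Read counts were not used here. Depth was estimated from low FPKM of genes with 1 coding transcript shorter than 1500 bases, assuming reads are counted whole. Between 42.3% and 61.4% of these values came within 0.15 of a whole read, where 30% would with no spacing, so the estimates are rough. A limit of 2500 bases was also tried and gave 13800000 to 19800000 reads. The estimates cover no error of mapping.

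The genes named are all members, every listed gene of the other GTPases, 6 fixed signalling genes, up to 3 of each interferon list with the largest change among those passing the test, and the 8 most similar patterns; any other is said to be chosen after its values were seen. Another gene of the signalling list is counted but not reported here. Members and lists were chosen with earlier results of these data known. Of T cell, B cell and NK cell markers, 2 of 10, 1 of 9 and 0 of 8 were listed.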

Additional observations from a re-analysis of the deposited data

How the results depend on the processing

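All members kept a negative log2 fold change under every alternative, with a median of -2.28 to -3.19 in fits of all 6 muscles. Quantile normalization left 9 members passing and 8 of them above 4-fold, with 11.8% of all genes lower and 226 genes lower by more than 4-fold, and Iigp1 did not pass (adjusted p = 0.0526 by limma). With a pseudocount of 0.1, 566 rather than 231 of all genes fell by more than 4-fold. No pairing of the mice by replicate number is described. Correlations of deviations between same-numbered muscles over all genes were -0.0394, -0.0843 and -0.112, which cannot exclude a pairing. With the replicate number as a block, 8 members passed, at -2.09 to -3.32, all but Gbp6 and Ifi47, and 1236 rather than 1931 of all genes fell. Fits that each left out 1 muscle gave 1 to 10 members that passed, 1 to 10 that also exceeded 4-fold, 669 to 2160 of all genes that fell and 135 to 269 that fell by more than 4-fold. The fewest members passed without C26 replicate 1, and the fewest above 4-fold without C26 replicate 1 or control replicate 1. The cause was not tested. With 3 muscles a group, C26 levels of few estimated reads in Gbp5 (2.1 to 10.5), Gbp3 (1.4 to 15.2 by transcript) and Ifi47 (1.9 to 5.0 in replicate 3) limit what can be said within that group.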
